A study of Mus musculus with 23 samples.

Results

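Osteopontin, the secreted glycoprotein encoded by Spp1, and 7 genes for its receptors were followed in sorted macrophages and monocytes of mice with and without a subcutaneous hydrogel of poly(ethylene glycol), PEG. The 8 genes are Spp1, Cd44, Itgav, Itgb1, Itgb3, Itgb5, Itga4 and Itga9. They were chosen by symbol, with earlier results of these data known, and found through their Ensembl identifiers among the 47729 entries of the count table. All 8 were present and passed the filter on low counts that left 16260 genes.

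A PEG hydrogel is a synthetic polymer network swollen with water, and tissue answers such a material with inflammation and a scar-like capsule, the foreign body response. All mice were wildtype C57BL/6J, and all cells came from subcutaneous tissue, with the explanted hydrogel where there was one, after digestion with Liberase TM. Macrophages are described as Cx3cr1+ and Ly6C-low, and monocytes as Cx3cr1+ and Ly6C-high. Each cell type was taken from mice without an implant (controls, labelled with the treatment none) and at days 2, 14 and 28 after implantation. This gave 8 groups of n = 3 libraries, except the macrophage controls with n = 2. Age, sex, sham surgery and pooling of animals are not stated in the labels used here. The libraries are called biological replicates, and p-values measure the spread between them.

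Osteopontin is an acidic, phosphorylated protein of bone matrix that activated macrophages also secrete, where it acts in cell adhesion, migration and fusion. Through an arginine-glycine-aspartate stretch it binds integrins that contain the alpha-v subunit, paired with beta1, beta3 or beta5. A neighbouring stretch that thrombin exposes is bound by alpha4 beta1 and alpha9 beta1, and CD44, mainly a hyaluronan receptor, is a further receptor. An integrin is active at the cell surface only as a pair of an alpha and a beta subunit, and mRNA levels do not show which pairs form.

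The coding stretch around the integrin-binding site is shown because it ties the gene to its receptors. It lies in exon 7 of 8 of the Spp1 transcript with the longest reading frame holding the site, at chr5:104439469-104439510 on the plus strand (GRCm38, GENCODE M21), and the capitals mark the codons for arginine, glycine and aspartate, residues 145 to 147 of 295.
Spp1 coding stretch: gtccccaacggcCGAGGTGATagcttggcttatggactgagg

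Promoters are shown for Spp1 and Itga4, the 2 members with a match to any of the motifs searched, as the 250 bases before a RefSeq start (GRCm38.p6). Spp1 had 2 RefSeq starts, and the promoter of the other start (chr5:104435942-104436191) held no match and is not shown. RefSeq promoters were matched for 7 of the 8 members, and Itgb3 was the exception. The only promoter matched for Itga9 (chr9:118711442-118711691, plus strand) lay inside the annotated gene, which begins at 118606690. The bases before that annotated start were not searched. The motifs were TGANTCA (bound by AP-1 factors), TGTGGT (the core bound by Runx factors) and CACGTG (an E-box), on both strands. The capitals mark the match to TGTGGT read on the opposite strand, which begins at position -128 in Spp1 (chr5:104434861-104435110, plus strand) and at position -60 in Itga4 (chr2:79255176-79255425, plus strand). Of all 32851 promoters of this length, 14.0% held TGTGGT, 6.7% held TGANTCA and 6.0% held CACGTG. A match describes letters and not a bound site.
Spp1 promoter: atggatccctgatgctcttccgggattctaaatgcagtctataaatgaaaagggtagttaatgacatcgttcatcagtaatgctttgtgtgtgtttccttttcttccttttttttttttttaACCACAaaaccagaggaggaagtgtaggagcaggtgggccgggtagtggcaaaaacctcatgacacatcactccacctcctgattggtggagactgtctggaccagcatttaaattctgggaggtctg
Itga4 promoter: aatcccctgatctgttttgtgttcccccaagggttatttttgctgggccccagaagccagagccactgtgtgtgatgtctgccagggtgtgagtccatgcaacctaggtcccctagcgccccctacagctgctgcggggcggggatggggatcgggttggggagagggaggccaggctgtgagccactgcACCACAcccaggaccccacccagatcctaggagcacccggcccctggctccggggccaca

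The libraries held between 9303153 and 32994092 counts (median 24722229). Levels are given as CPM, the count scaled to the library total and its TMM factor, and levels of different genes are compared only as CPM per kb of annotated exon. Summed markers separated the labelled cell types, while some single markers went the other way. The summed CPM of 10 macrophage markers was 10400 to 21700 in macrophages and 2990 to 8800 in monocytes, and that of 8 monocyte markers 1590 to 5840 and 5970 to 19100. The macrophage marker Fcgr1 had means of 491, 469 and 303 CPM in macrophages at days 2, 14 and 28. In monocytes it had 788, 1300 and 743 CPM. The monocyte marker F13a1 had 3260 CPM in control macrophages and 1840 in control monocytes. In bulk samples, fewer cells of a type and less RNA per cell cannot be told apart. A gene is said to have risen or fallen where its p from the quasi-likelihood test of edgeR, adjusted over all genes by Benjamini-Hochberg, was under 0.05. Folds are log2 differences ± their standard error.

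Spp1 became one of the most abundant transcripts in macrophages around the implant. By counts it ranked 280 and 509 in the controls and 1 or 2 in every macrophage library with the implant. In the macrophage controls it measured 322 and 201 CPM. At day 2 macrophages held 62240, 30020 and 57230 CPM, at day 14 39130, 25810 and 97420 CPM, and at day 28 89500, 50020 and 48970 CPM. Every implant library was thus far above both controls, and the 3 implant days overlapped each other. As a share of all counts Spp1 was 0.045% and 0.026% in the 2 controls, and it reached 8.197% in library A of day 28, where it was the most abundant gene. The log2 differences from control were 7.57 ± 0.89 (adjusted p = 8.05e-06), 7.69 ± 0.90 (adjusted p = 8.97e-06) and 7.91 ± 0.90 (adjusted p = 8.3e-06) at days 2, 14 and 28, against the same controls.

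In monocytes the start was lower and the change larger. Controls held 4.49, 12.6 and 5.94 CPM, from 206, 474 and 251 counts. By counts Spp1 ranked 8656, 6367 and 8147 there, and between 2 and 25 in monocytes with the implant. Monocytes held 16780, 12170 and 3623 CPM at day 2, then 68040, 31790 and 50570 CPM at day 14, then 13380, 31300 and 11470 CPM at day 28. All 9 implant libraries lay above the 3 controls, and day 14 lay above both other days without overlap, by a narrow margin over the highest day 28 library. The log2 differences from control were 10.47 ± 0.83 (adjusted p = 1.47e-08), 12.68 ± 0.89 (adjusted p = 2.04e-09) and 11.25 ± 0.85 (adjusted p = 7.75e-09). All 6 implant effects on Spp1 kept their call in every alternative tried.

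The order of the groups by mean Spp1 was macrophages at day 28 (62830 CPM), macrophages at day 14 (54120), monocytes at day 14 (50140), macrophages at day 2 (49830), monocytes at day 28 (18710), monocytes at day 2 (10860), macrophage controls (262) and monocyte controls (7.67). Each neighbour overlapped the next down to monocytes at day 2, and the controls stood below without overlap. Summed CPM of 13 neutrophil markers in macrophages was 69.7 to 103 in controls, 3270 to 6910 at day 2, 155 to 339 at day 14 and 122 to 346 at day 28. Their part in the Spp1 values was not tested. An unspliced predicted transcript, Gm42793, overlaps exons of Spp1 on the same strand and held 11228 counts in all libraries against 15278191 for Spp1.

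**Figure D1:**
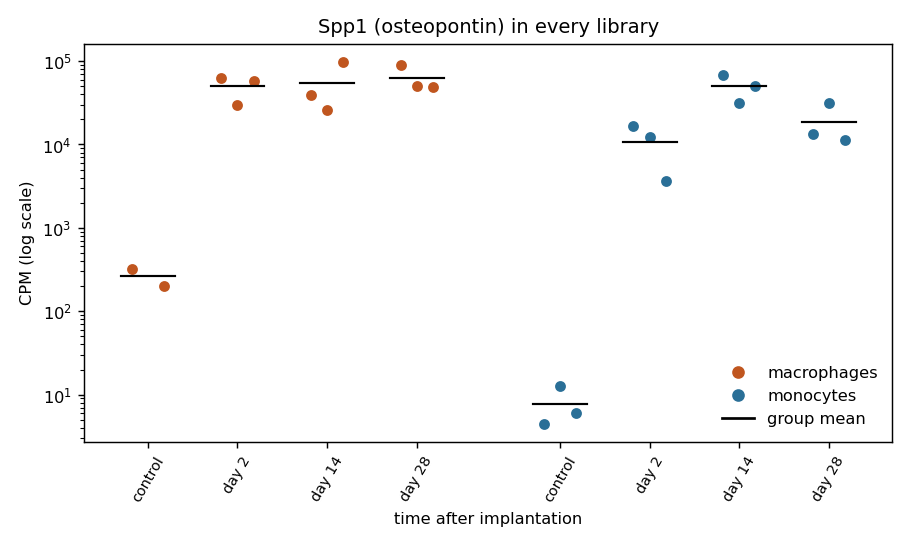
Spp1 in every library, in CPM on a log axis, by time after implantation, for macrophages (orange) and monocytes (blue). Bars are group means, and the controls, at 4.49 to 322 CPM, lie below every implant library, the lowest of which holds 3623 CPM.

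Genes whose profile over the 8 group means was closest to that of Spp1 were sought among the 7066 genes that averaged 10 CPM or more, as a description without a test. Likeness was the root mean square difference of the centred log2 means. The closest was Arg1, the arginase of alternatively activated macrophages (0.99), which went from 7.3 to 9230 CPM in macrophages at day 2 and from 0.734 to 2020 CPM in monocytes. Next were Cxcl3, a chemokine for neutrophils (1.31), Tnfrsf9, the costimulatory receptor 4-1BB (1.47), Pdpn, which encodes podoplanin (1.55), and Hilpda, a hypoxia-induced lipid droplet protein (1.59).

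CD44 binds hyaluronan and osteopontin and anchors to the actin cytoskeleton through ezrin and its relatives. Cd44 was the receptor gene with the highest level per length in all 8 groups but the controls, where Itgb1 stood above it. Macrophage controls held 87.7 and 54.6 CPM. At day 2 the libraries held 589, 728 and 677 CPM, at day 14 768, 554 and 581 CPM, and at day 28 1304, 1077 and 1038 CPM, with no overlap between any implant group and the controls. Cd44 rose by a log2 difference of 3.23 ± 0.36 (adjusted p = 4.62e-06), 3.16 ± 0.36 (adjusted p = 7.36e-06) and 4.0 ± 0.38 (adjusted p = 7.29e-07).

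Monocyte controls already held more Cd44, at 390.5, 383 and 457 CPM. Monocytes reached 1256, 788 and 994 CPM at day 2 and 986, 1072 and 702 CPM at day 14, above all controls, and 356, 721 and 868 CPM at day 28, which overlapped them. The rise was 1.30 ± 0.29 at day 2 (adjusted p = 0.00229) and 1.17 ± 0.28 at day 14 (adjusted p = 0.00335). At day 28 the difference was 0.66 ± 0.28 (adjusted p = 0.11, 95% interval 0.11 to 1.21), and 0.84 with adjusted p = 0.022 when an offset for exon length was fitted. By mean CPM the order was macrophages at day 28 (1140), monocytes at days 2 (1012) and 14 (920), macrophages at day 2 (665), monocytes at day 28 (648), macrophages at day 14 (634), monocyte controls (410) and macrophage controls (71.1). Neighbours in this order overlapped down to macrophages at day 14, and each control group lay below the group before it without overlap.

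The alpha-v subunit gene Itgav is the shared partner of beta1, beta3 and beta5. In macrophage controls it measured 14.0 and 7.91 CPM, and at day 28 53.5, 63.0 and 96.9 CPM. At day 2 the libraries held 49.2, 27.3 and 52.9 CPM and at day 14 31.0, 32.7 and 56.1 CPM, all above the controls. The log2 rises were 1.98 ± 0.46 (adjusted p = 0.00593), 1.87 ± 0.46 (adjusted p = 0.0131) and 2.71 ± 0.48 (adjusted p = 0.000783). Without control library B the day 2 value was 1.59 (adjusted p = 0.083) and the day 14 value 1.54 (adjusted p = 0.14). Without day 14 library C the latter was 1.53 (adjusted p = 0.059), and with only the groups compared 1.86 (adjusted p = 0.052).

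In monocytes Itgav did not pass the test at any day. Controls held 37.5, 33.4 and 63.0 CPM, and the implant libraries held 21.3 to 67.3 CPM and overlapped them at every day. The differences were -0.23 (95% interval -0.98 to 0.52), 0.34 (-0.41 to 1.08) and 0.30 (-0.45 to 1.05). Itgav is 10744 bases of exon, and the libraries differed in how log2 CPM ran with exon length, with slopes per doubling of length from -0.278 to 0.442, positive in all 5 controls. With an offset for that trend the macrophage rises were 2.59, 2.35 and 2.87, and the monocyte difference at day 14 was 1.02 (adjusted p = 0.059). Exons of Itgav overlap the antisense gene Gm13684, and whether counting used the strand is not stated here, so these values are uncertain by up to that gene's share, 888 counts in all libraries against 24831. By mean CPM macrophages at day 28 were highest (71.1), each neighbour in the order overlapped the next down to monocytes at day 2 (38.0), and macrophage controls (10.9) lay below without overlap.

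Itgb5, the beta subunit of alpha-v beta5, rose in both cell types. Macrophages went from 15.8 and 14.8 CPM in controls to 24.3, 27.7 and 24.6 CPM at day 2, 38.4, 47.1 and 57.4 CPM at day 14 and 62.9, 60.5 and 40.2 CPM at day 28. No implant library overlapped the controls, and days 14 and 28 overlapped each other. The rise was 1.64 ± 0.33 at day 14 (adjusted p = 0.00276) and 1.83 ± 0.33 at day 28 (adjusted p = 0.000886), and the day 2 difference of 0.74 ± 0.32 missed the threshold (adjusted p = 0.113).

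In monocytes Itgb5 went from 22.6, 13.6 and 23.6 CPM in controls to 54.8, 52.4 and 39.1 CPM at day 2, 51.8, 52.7 and 72.6 CPM at day 14 and 94.7, 74.9 and 50.8 CPM at day 28. All 9 implant libraries lay above the controls. The rises were 1.29 ± 0.28 (adjusted p = 0.0021), 1.57 ± 0.28 (adjusted p = 0.000245) and 1.88 ± 0.28 (adjusted p = 6.12e-05), and all 3 kept their call in every alternative. Summed fibroblast markers in monocytes moved from 2.26 to 7.24 CPM in controls to 12.8 to 135 at day 2, 617 to 1130 at day 14 and 281 to 674 at day 28, and their part in the monocyte values was not tested. In macrophages the same markers summed to 192 to 261 CPM in controls and 5.97 to 118 CPM with the implant, and their part there was not tested either. By mean CPM the order ran from monocytes at day 28 (73.5) through monocytes at day 14 (59.0), macrophages at day 28 (54.5) and monocytes at day 2 (48.7) to macrophages at day 14 (47.6), each overlapping the next. Macrophages at day 2 (25.5) lay below these and above the controls (19.9 in monocytes and 15.3 in macrophages), which overlapped each other.

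Itgb1 encodes beta1, the common partner of alpha-v, alpha4 and alpha9 and of many collagen and laminin receptors. In macrophages it did not pass the test at any day. Controls held 124 and 268 CPM, day 2 held 246, 269 and 163 CPM, day 14 293, 476 and 351 CPM, and day 28 149, 169 and 481 CPM. Only day 14 lay wholly above the controls, and the differences were 0.20 (95% interval -0.71 to 1.11), 0.93 (-0.01 to 1.86) and 0.44 (-0.48 to 1.36).

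In monocytes Itgb1 fell at days 2 and 14 and not at day 28. Controls held 279.9, 272 and 360.5 CPM, day 2 held 110.4, 96.8 and 129.5 CPM, and day 14 held 94.7, 87.6 and 78.9 CPM. The falls were -1.44 ± 0.42 (adjusted p = 0.016) and -1.80 ± 0.43 (adjusted p = 0.00261), with both days wholly below the controls. Monocytes at day 28 held 200.3, 526 and 203 CPM, around the controls (0.03, 95% interval -0.78 to 0.84), and library B alone carried the high value. The day 2 fall had an adjusted p of 0.052 to 0.064 when any of 3 libraries (control C, day 2 A or day 2 B) was left out. By mean CPM the order ran from macrophages at day 14 (373) to monocytes at day 14 (87.1), and only the last pair of neighbours, monocytes at day 2 (112) and at day 14, did not overlap. Of the neutrophil markers, Ltf, Ngp, Camp, Elane and Mpo were higher in monocyte controls than in implant monocytes. Ngp had 1110 CPM there and 7.46, 0.016 and 0.225 CPM at days 2, 14 and 28. Others went the other way at day 2, such as S100a8 (603 and 1500 CPM). The part of these markers in the monocyte falls was not tested.

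Itgb3, the gene of the beta3 subunit of alpha-v beta3, was the lowest of the receptor genes per length in 7 of the 8 groups. Monocyte controls held 8.85, 6.80 and 18.3 CPM, from 406, 256 and 775 counts. Implant monocytes held 0.669 to 1.65 CPM at day 2, 0.0692 to 1.62 at day 14 and 0 to 2.31 at day 28, all below the controls. The falls were -3.29 ± 1.11 at day 2 (adjusted p = 0.034) and -3.92 ± 1.15 at day 14 (adjusted p = 0.0117), and the day 28 difference was -3.13 ± 1.10 (adjusted p = 0.0542). The day 28 fall was called with no filter (adjusted p = 0.0062), with DESeq2 (adjusted p = 0.012) and with limma voom (-5.17, adjusted p = 0.002). Leaving out any of the 6 libraries except control B ended the day 2 call (adjusted p = 0.057 to 0.12). The part of the neutrophil markers in the monocyte falls of Itgb3 was not tested. The implant groups of both cell types, with means of 0.683 to 1.30 CPM, overlapped their neighbours in the order, while monocyte controls (11.3) lay above and macrophage controls below all others but for the monocyte library at 0.

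In macrophages Itgb3 moved the other way, from 0 counts in both controls to 11 to 32 counts at day 2, 5 to 26 at day 14 and 11 to 33 at day 28. Against a floor of 3 counts over the control group, this was at least 19-fold higher at day 2, at least 11.3-fold at day 14 and at least 12.2-fold at day 28, bounds that cover counting error only. The edgeR quasi-likelihood test called all 3 (adjusted p = 0.0164, 0.0482 and 0.0334). Without either control library no day passed (adjusted p = 0.12 to 0.24), the day 14 call was lost without any of its 5 libraries, and the day 28 call also without day 28 library A (adjusted p = 0.083). The day 14 call was also lost with DESeq2 size factors (adjusted p = 0.05), with limma voom (adjusted p = 0.054) and when only the groups compared were fitted (adjusted p = 0.088), and the last of these ended the day 28 call too (adjusted p = 0.11).

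Itgb3 is also known from platelets and osteoclasts, and summed markers of both were higher in macrophages at day 2 than in controls. The 9 platelet markers summed to 818 to 1460 CPM in macrophage controls, 3980 to 6870 at day 2, 807 to 1440 at day 14 and 550 to 1070 at day 28. Most of this was Pf4, with means of 1130, 4640, 1000 and 707 CPM, and Ppbp, with 3.31, 470, 32.7 and 36.5 CPM, while Gp1bb was at 0 in all 8 groups. Group means of Gp9, Gp1ba, Gp6, Treml1 and Tubb1 were at most 0.714 CPM. Itga2b had means of 1.12 CPM in macrophage controls and 0.512, 0.978 and 0.0235 CPM at days 2, 14 and 28. In monocytes the platelet sum was 0.632 to 0.982 CPM in controls, where Itgb3 was highest, and 86.6 to 504 with the implant. The 8 osteoclast markers summed to 114 to 180 CPM in macrophage controls and to 224 to 506, 790 to 2400 and 1160 to 4720 at days 2, 14 and 28, with Calcr at 0 in all macrophage groups. Nfatc1 had 76.2 CPM in macrophage controls and 32.1, 62.5 and 78 CPM at the 3 days. Means of Acp5, Ctsk, Ocstamp, Dcstamp, Oscar and Atp6v0d2 were above those of macrophage controls at each day. In monocytes the 8 osteoclast markers summed to 133 to 182 CPM in controls and to 131 to 159, 462 to 487 and 354 to 513 at the 3 days. The part of these markers' cell types in the Itgb3 values was not tested.

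Itga4 encodes alpha4, which with beta1 forms VLA-4, the receptor for VCAM-1, fibronectin and thrombin-cut osteopontin. It was highest in monocyte controls, at 291, 181 and 288 CPM, with no overlap with any other group. Monocytes held 71.3, 60.3 and 55.0 CPM at day 2, 34.3, 31.8 and 26.7 CPM at day 14 and 22.9, 30.8 and 28.3 CPM at day 28. The falls were -2.03 ± 0.35 (adjusted p = 0.000248), -3.03 ± 0.36 (adjusted p = 2.61e-06) and -3.21 ± 0.36 (adjusted p = 1.93e-06), and all 3 kept their call in every alternative. Itga4 has the longest exons of the 8 genes (13978 bases), and with the length offset the falls were -1.32, -2.19 and -2.68. The part of the neutrophil markers in the monocyte falls of Itga4 was not tested.

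In macrophages Itga4 was at 104 and 35.6 CPM in controls, a wide spread. Day 2 held 26.2, 21.6 and 15.0 CPM, below both, day 14 held 28.9, 35.9 and 21.1 CPM, overlapping control B, and day 28 held 81.3, 52.0 and 45.5 CPM, within their range. It fell at day 2 (-1.73 ± 0.37, adjusted p = 0.00314) and day 14 (-1.28 ± 0.37, adjusted p = 0.0341), and at day 28 the difference was -0.22 (95% interval -0.95 to 0.50). Without control library A neither fall passed (-0.84, adjusted p = 0.24, and -0.32, adjusted p = 0.8). With the length offset the day 2 value was -0.91 (adjusted p = 0.042) and the day 14 value -0.72 (adjusted p = 0.14), and without day 14 library A or C the latter had adjusted p = 0.08 or 0.13. The day 14 call was also lost with limma voom (-0.96, adjusted p = 0.082) and with only the groups compared (adjusted p = 0.15). Exons of Itga4 overlap those of Cerkl on the other strand, which held 825 counts in all libraries against 49307. After monocyte controls (253 CPM), the means ran from macrophage controls (69.6), monocytes at day 2 (62.2) and macrophages at day 28 (59.6), which overlapped in turn, to monocytes at day 14 (30.9), macrophages at day 14 (28.6), monocytes at day 28 (27.3) and macrophages at day 2 (20.9), which did so as well.

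Itga9 encodes alpha9, the other alpha subunit that binds thrombin-cut osteopontin. In monocyte controls it had 1, 0 and 4 counts. Monocytes held 40, 24 and 5 counts at day 2, 17, 51 and 50 at day 14 and 171, 39 and 154 at day 28. Over the pooled libraries the folds were 33.6 (counting interval 13.7 to 107), 55.2 (23 to 173) and 156 (66.3 to 484), and the fitted log2 rises were 5.11 ± 0.92 (adjusted p = 0.000416), 5.57 ± 0.92 (adjusted p = 0.00011) and 7.15 ± 0.96 (adjusted p = 1.58e-05). In macrophages Itga9 was already present, at 8.75 and 6.92 CPM in controls and 3.62 to 15.5 CPM with the implant, and no day passed the test (-0.33, 95% interval -1.81 to 1.15, 0.13, -1.36 to 1.61, and 0.72, -0.79 to 2.23). The means ran from macrophages at day 28 (12.9 CPM), day 14 (8.55) and control (7.84) over monocytes at day 28 (6.36) to macrophages at day 2 (6.20), each overlapping the next, and then to monocytes at day 14 (2.11) and day 2 (1.57), which overlapped, with monocyte controls (0.0388) below.

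**Figure D2:**
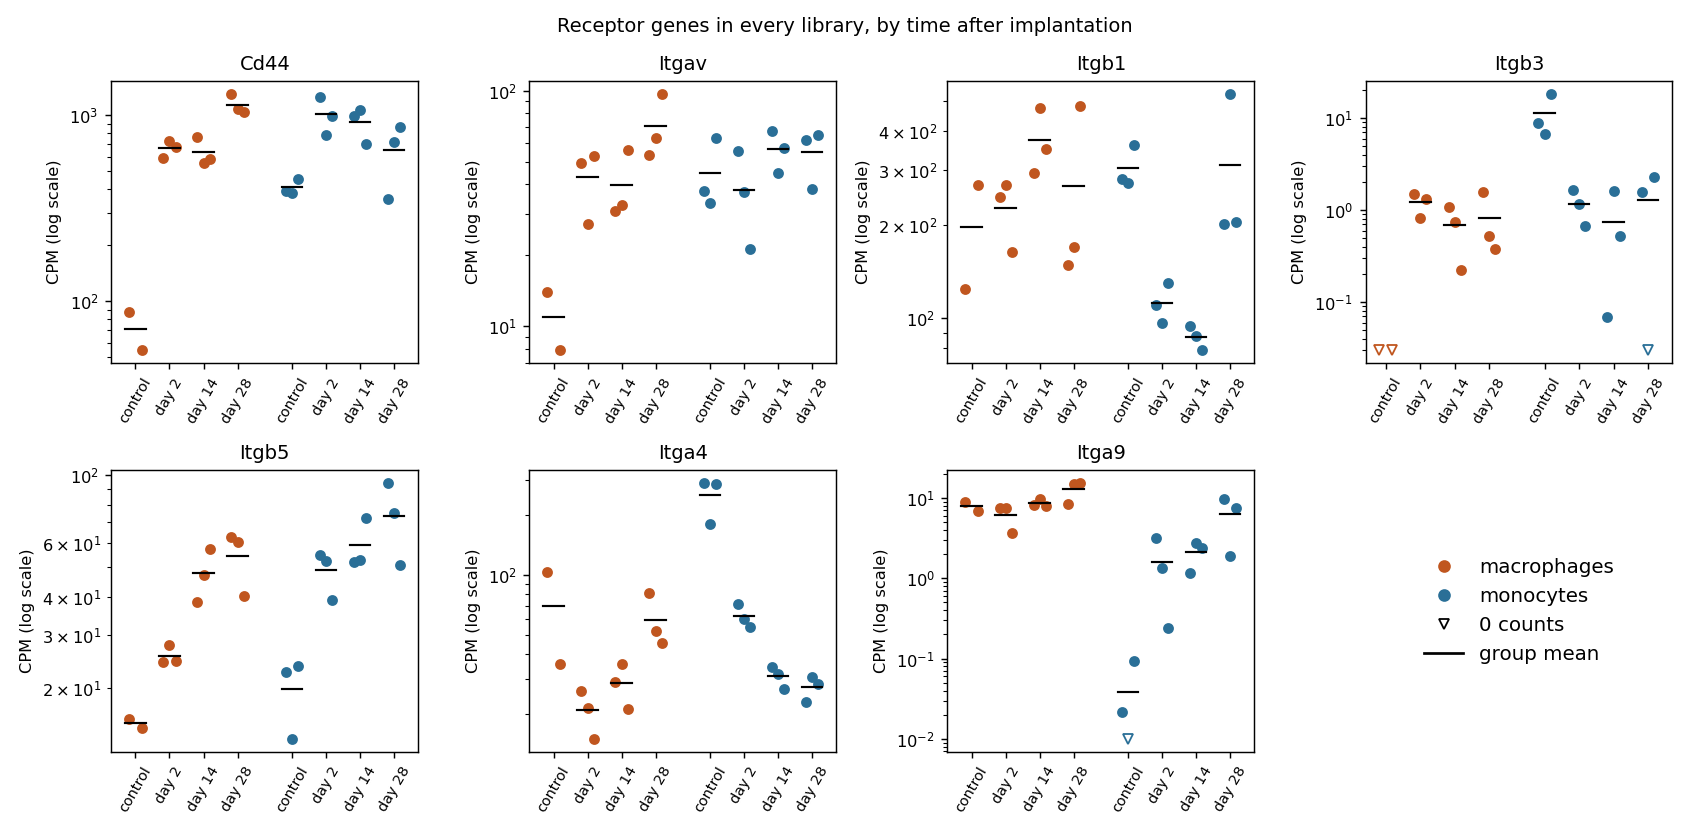
The 7 receptor genes in every library, in CPM on log axes whose ranges differ between panels, by time after implantation, for macrophages (orange) and monocytes (blue). Bars are group means and open triangles mark libraries with 0 counts. Itga4 is highest in monocyte controls (181 to 291 CPM), and Itgb3 has 0 counts in both macrophage controls.

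Across the 8 genes, macrophages at day 2 had 4 higher (Spp1, Cd44, Itgav and Itgb3), against 10.1% of all genes called higher, and 1 lower (Itga4), against 7.1%. At day 14 Itgb5 joined them, 5 higher against 5.51% and 1 lower against 2.7%, and at day 28 5 were higher against 6.57% and none was lower against 3.99%. Monocytes at day 2 had 4 higher (Spp1, Cd44, Itgb5 and Itga9) against 15.5% and 3 lower (Itgb1, Itgb3 and Itga4) against 11.5%. At day 14 the same 4 and 3 members were called, against 19.8% and 17.9%. At day 28 3 were higher (Spp1, Itgb5 and Itga9) against 11.7% and 1 was lower (Itga4) against 6.52%. The median log2 difference of the 8 members was 1.36, 1.75 and 2.27 in macrophages and 0.53, 0.75 and 0.48 in monocytes, where that of all genes was -0.16, -0.08 and -0.04, and 0, -0.03 and 0. The 3 days of a cell type share their controls. Because the members were chosen with earlier results of these data known, their counts and medians beside those of all genes are a description and not a test.

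**Figure D3:**
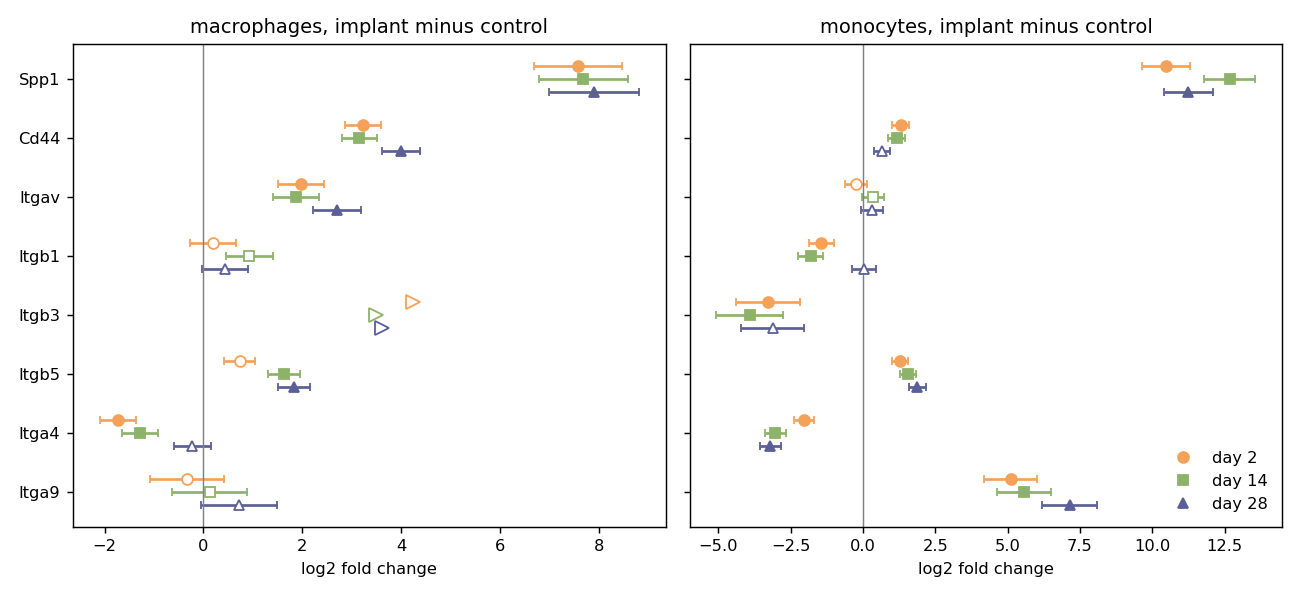
Log2 differences from control with standard errors for the 8 genes, at day 2 (circles), day 14 (squares) and day 28 (triangles), in macrophages (left) and monocytes (right), whose axis ranges differ. Filled symbols passed an adjusted p of 0.05, and the open arrows for Itgb3 in macrophages are lower bounds. Itga4 lies left of 0 at all days in monocytes, down to -3.21, and Spp1 reaches 12.68.

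Per length, Cd44 was the most abundant receptor gene in day 28 macrophages, at 168 CPM per kb, with Itgb1 at 65.3, Itgb5 at 15.4, Itgav at 6.62, Itga4 at 4.27, Itga9 at 1.67 and Itgb3 at 0.140. Spp1 stood at 38120 CPM per kb there. In monocyte controls Itgb1 led with 74.6 CPM per kb, before Cd44 with 60.6 and Itga4 with 18.1, and Spp1 stood at 4.66.

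The balance between subunits was taken as a log2 ratio per length within each library, which does not depend on library scaling, and tested across the 4 times with an exact permutation test for 6 ratios in 2 cell types. The ratio of Itga4 to Itga9 in monocytes moved from a geometric mean of 3800 in controls to 32.6 at day 2, 8.41 at day 14 and 2.87 at day 28 (p = 0.000584, adjusted over 12 tests 0.00701, exact, 12 libraries). The control value depends on the added count, since Itga9 had 1, 0 and 4 counts there. In macrophages it was 4.28, 1.90, 1.81 and 2.56 (adjusted p = 0.167, exact permutation). The ratio of Itgb3 to Itgb5 in macrophages passed as well (adjusted p = 0.0366, exact permutation), resting on 0 counts of Itgb3 in controls, and it had an adjusted p of 0.171 when no count was added, which drops both control libraries. The other 9 ratios had adjusted p of 0.0614 to 0.164 in the exact test. These include Itgb5 to Itgav in monocytes, 1.37 in controls and 4.14, 3.18 and 4.02 with the implant. Itgb5 has 3553 bases of exon and Itgav 10744. The slopes of log2 CPM with exon length were 0.087 to 0.442 in monocyte controls and -0.164 to -0.04 at day 2. No ratio was offset for this trend, and its part in the ratios was not tested.

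**Figure D4:**
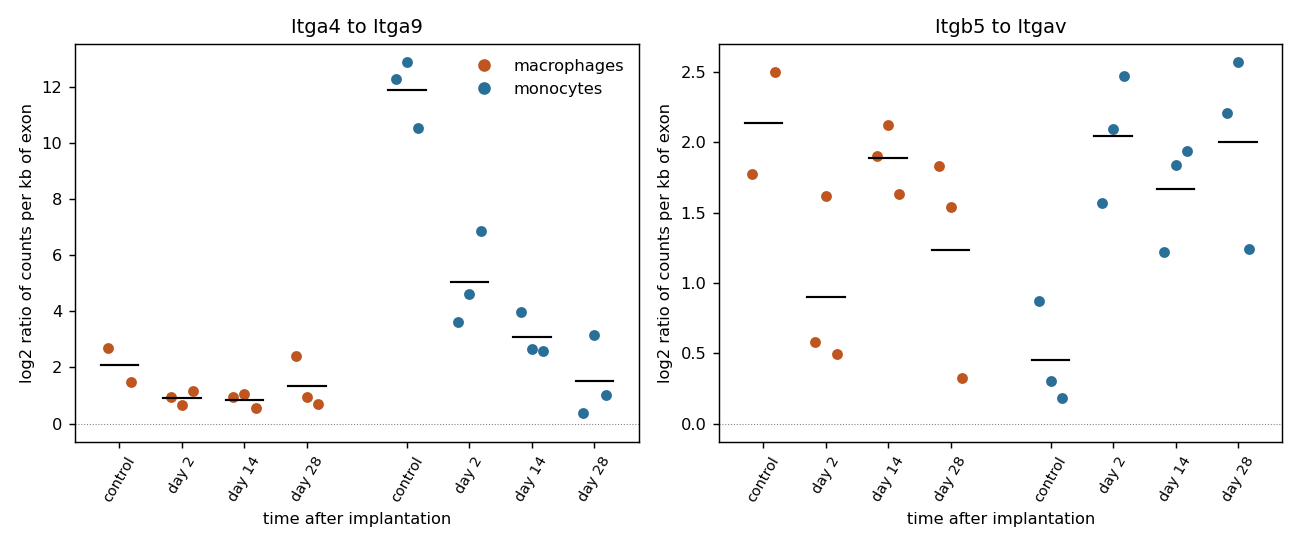
Log2 ratio of counts per kb of exon in every library, for Itga4 to Itga9 (left) and Itgb5 to Itgav (right), by time after implantation, in macrophages (orange) and monocytes (blue). Bars are group means, and the monocyte ratio of Itga4 to Itga9 runs from a mean of 11.89 in controls to 1.52 at day 28.

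Between implant days few members moved. In macrophages Itgb5 (1.09 ± 0.28, adjusted p = 0.0326) and Itga4 (1.51 ± 0.34, adjusted p = 0.019) were higher at day 28 than at day 2, against 2.28% of genes higher and 1.97% lower. Itgb5 lost its call without any library but day 28 C (adjusted p = 0.079 to 0.12). Itga4 lost it without day 2 library B or C or day 28 library A or B (adjusted p = 0.051 to 0.1), and its value was 0.91 (adjusted p = 0.067) with the length offset. In monocytes Itgb1 was higher at day 28 than at day 14 (1.83 ± 0.43, adjusted p = 0.0489, against 0.59% of genes higher and 0.129% lower). Without day 28 library B its value was 1.21 (adjusted p = 0.23), and without any of the 3 day 14 libraries the adjusted p was 0.076 to 0.16.

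No member was called by the edgeR test in the other comparisons of days. For macrophages at day 14 against day 2 (0.197% of genes higher and 0.277% lower), 1 member had an unadjusted p under 0.05, DESeq2 called 0 and limma voom 1. For day 28 against day 14 (0.00615% and 0% of genes), these were 3, 0 and 0. For monocytes at day 14 against day 2 (0.486% and 0.24%), 2 members had an unadjusted p under 0.05, among them Spp1 (2.21 ± 0.58, adjusted p = 0.0872), which DESeq2 and voom called. For day 28 against day 2 (0.387% and 0.48%), 5 did, and DESeq2 called 3 and voom 1.

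Control macrophages and monocytes differed in 6 of the 8 genes. Spp1 (5.09 ± 0.68, adjusted p = 2.26e-05) and Itga9 (7.45 ± 0.98, adjusted p = 2e-05) were higher in macrophages, against 7.61% of all genes. Cd44 (-2.53 ± 0.35, adjusted p = 3.35e-05), Itgav (-2.03 ± 0.46, adjusted p = 0.00513), Itga4 (-1.87 ± 0.40, adjusted p = 0.00302) and Itgb3 (adjusted p = 0.0017, at least 185-fold higher in monocytes) were lower, against 4.9%. Without macrophage control B, Itgav (-1.71, adjusted p = 0.087) and Itga4 (-1.33, adjusted p = 0.082) did not pass.

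Around the implant the cell types differed in fewer members. At day 2 Spp1 was higher in macrophages (2.20 ± 0.58, adjusted p = 0.0371, against 1.64% of genes) and Itga4 lower (-1.57 ± 0.34, adjusted p = 0.0122, against 1.78%), and neither call held throughout. Spp1 lost it without macrophage library A or C or monocyte library B or C (adjusted p = 0.098 to 0.14), and Itga4 without macrophage library B or C (adjusted p = 0.053 and 0.069). At day 14 Itgb1 was higher in macrophages (2.10 ± 0.43, adjusted p = 0.00583, against 5.34% higher and 4.02% lower), a call kept in every alternative. At day 28 edgeR called none, against 1.49% higher and 1.03% lower, while 3 members had an unadjusted p under 0.05 and DESeq2 called 2 and voom 0.

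The implant effect itself was compared between the cell types by an interaction contrast, the macrophage effect minus that in monocytes. The effect on Cd44 was larger in macrophages at all 3 days, by 1.92 ± 0.43 (adjusted p = 0.0114), 1.99 ± 0.43 (adjusted p = 0.0072) and 3.34 ± 0.44 (adjusted p = 7.18e-05). Without macrophage control B the day 2 and day 14 values were 1.65 (adjusted p = 0.12) and 1.82 (adjusted p = 0.051). The effect on Spp1 was smaller in macrophages at day 14 (-4.98 ± 0.85, adjusted p = 0.00102) and day 28 (-3.35 ± 0.84, adjusted p = 0.0186), and at day 2 the contrast was -2.90 ± 0.83 (adjusted p = 0.0575), called with no filter, with DESeq2 (adjusted p = 0.0098) and with the length offset (adjusted p = 0.023). The day 28 contrast had an adjusted p of 0.05 to 0.07 without any of 3 libraries, macrophage control A, macrophage day 28 B or monocyte day 28 B.

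The effect on Itga9 was smaller in macrophages at all days (-5.44 ± 1.17, -5.44 ± 1.16 and -6.43 ± 1.16, with adjusted p = 0.00814, 0.00623 and 0.00147), and it kept its call in every alternative. For Itga4 the contrast was 1.75 ± 0.51 at day 14 (adjusted p = 0.0407), lost without any of 7 libraries, macrophage control B, macrophage day 14 A or B, monocyte control A or C and monocyte day 14 B or C (adjusted p = 0.051 to 0.16) and with DESeq2 size factors (0.053) or only the groups compared (0.07), and 2.99 ± 0.52 at day 28 (adjusted p = 0.00108), kept in every alternative. Itgav differed at day 2 (2.21 ± 0.59, adjusted p = 0.0374) and day 28 (2.4 ± 0.59, adjusted p = 0.0172). Without macrophage control B these had adjusted p = 0.18 and 0.12, and the day 2 contrast was also lost without macrophage day 2 library A or C, monocyte control C or monocyte day 2 library B or C (adjusted p = 0.078 to 0.085) and with only the groups compared (adjusted p = 0.05). Itgb1 differed at day 14 (2.73 ± 0.64, adjusted p = 0.0125, and 2.37 with adjusted p = 0.09 without macrophage control A). Itgb3 differed at all days (adjusted p = 0.00913, 0.00833 and 0.0109), with a size that depends on the 0 counts in macrophage controls and adjusted p of 0.053 to 0.11 without either of these. With only the groups compared its day 28 contrast had an adjusted p of 0.053. Higher and lower contrasts made up 1.37% and 2.42% of all genes at day 2, where 3 and 1 members were called. They made up 3.25% and 4.29% at day 14 and 2.23% and 3.55% at day 28, with 4 and 2 members on each day.

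Osteopontin's relatives in the family of bone and tooth matrix proteins were nearly absent. Ibsp, Dspp and Mepe had 0 counts in every library and Dmp1 at most 0.288 CPM in any, so none was tested. Of 13 genes for enzymes that cut or modify osteopontin, 8 were tested, and 4, 4 and 5 rose in macrophages at days 2, 14 and 28 and 7, 6 and 8 in monocytes, with none lower in these 6 comparisons. The shares of all genes called are those given for the 8 members. The median log2 difference of the tested enzymes was 1.16, 1.87 and 1.69 in macrophages and 3.84, 3.45 and 3.32 in monocytes. Mmp12, macrophage elastase, rose from a mean of 20.1 to 680, 666 and 1060 CPM in macrophages, and from 0.729 to 17.0, 116 and 74.6 CPM in monocytes. Tgm2, a transglutaminase that crosslinks osteopontin, rose from 13.6 to 182, 248 and 355 CPM and from 7.61 to 335, 356 and 761 CPM. Fam20c, the Golgi kinase that phosphorylates it, rose in macrophages from 17.1 to 143, 137 and 98.8 CPM. Acp5, the acid phosphatase of osteoclasts and some macrophages that removes phosphate from it, rose from 41.5 to 130, 352 and 307 CPM there.

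Of all genes, 10.1%, 5.51% and 6.57% were called higher and 7.1%, 2.7% and 3.99% lower in macrophages at days 2, 14 and 28. In monocytes these shares were 15.5%, 19.8% and 11.7% higher and 11.5%, 17.9% and 6.52% lower. Of the other ligands of these receptors, 15 of 19 were tested. In macrophages 3, 3 and 4 were higher and 1, 0 and 1 lower, and in monocytes 5, 7 and 7 higher and 1, 1 and 0 lower. Their median was -0.73, 0.02 and 0.65 in macrophages, at day 2 of the opposite sign to the majority of the called members. In monocytes it was 0, 4.68 and 3.91, and 0, 3.49 and 3.81 with genes at 0 in a group set to their bound. Several of these ligands were at or near 0 in monocyte controls, among them Postn (0.00789 CPM), Ccn1 (0.00885) and Ccn3 (0). At day 14 they held 16.2, 7.28 and 5.59 CPM. The bound applies only to a mean of exactly 0. Summed fibroblast markers were at 617 to 1130 CPM in day 14 monocytes, and their part in these values was not tested. Thbs1, the matrix protein thrombospondin-1, rose from 11 to 596, 759 and 1160 CPM in macrophages and from 13.5 to 3780, 3480 and 4370 CPM in monocytes. Srgn, the granule proteoglycan serglycin and a CD44 ligand, rose from 193 to 5540, 1630 and 1670 CPM and from 300 to 5770, 9840 and 4510 CPM. Fn1, fibronectin, rose in macrophages from 193 to 1840, 1720 and 4630 CPM.

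Of 10 tested other integrin alpha subunit genes, 1, 2 and 4 rose in macrophages, and 2 rose and 1 fell in monocytes at each day. The shares of all genes were 10.1%, 5.51% and 6.57% higher in macrophages and 15.5%, 19.8% and 11.7% higher in monocytes. Lower were 7.1%, 2.7% and 3.99%, and 11.5%, 17.9% and 6.52%. The counts in day 2 macrophages and in monocytes were near these shares. The median of the alpha subunit genes was 0.83, 0.59 and 1.41 in macrophages and -0.76, 1.01 and 1.02 in monocytes. Itgax, which encodes CD11c, went from 15.8 CPM in control macrophages to 114 at day 14 (2.86 ± 0.81, adjusted p = 0.0324) and 546 at day 28 (5.12 ± 0.92, adjusted p = 0.00087). Itgal, of the leukocyte integrin LFA-1, fell in monocytes from 449 to 100, 53.7 and 91.8 CPM. Beside the same shares, of 5 tested beta subunit genes 2, 1 and 1 rose and none fell in macrophages. In monocytes 1, 1 and 0 rose and 2 fell at each day. The median was 1.72, 0.80 and 1.75 (1.42, 0.80 and 0 with bounds) and 0.58, 0.24 and 0.49. Itgb2, the partner of both, rose in macrophages from 411 to 1360, 1680 and 2620 CPM, and Itgb7, the other partner of alpha4, fell in monocytes from 654 to 187, 53.6 and 182 CPM.

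Genes for integrin activation and adhesion signalling, 30 of 32 tested, rose in 4, 5 and 5 and fell in 1, 0 and 2 cases in macrophages. In monocytes 3, 6 and 6 rose and 8, 12 and 6 fell. Of all genes, 10.1%, 5.51% and 6.57% were higher and 7.1%, 2.7% and 3.99% lower in macrophages. In monocytes these were 15.5%, 19.8% and 11.7%, and 11.5%, 17.9% and 6.52%. The rises in monocytes at days 2 and 14 were near or under the share of all genes. The median of the adhesion genes was 0.11, 0.27 and 0.40 in macrophages and -0.45, -0.45 and -0.16 in monocytes. Rasgrp2, an activator of the integrin switch Rap1, fell in monocytes from 122 to 22.4, 13 and 8.96 CPM, and Syk, a kinase downstream of integrins, fell at day 2 (-1.60 ± 0.30, adjusted p = 0.000628) and day 14 (-1.75 ± 0.30, adjusted p = 0.000178). Of 17 genes of hyaluronan metabolism and CD44 partners, 15 were tested, beside the same shares of all genes. In macrophages 3, 3 and 4 were higher and 2, 1 and 1 lower, and in monocytes 4, 7 and 4 higher and 0, 1 and 0 lower. Their median was 0.36, 0.63 and 0.09 in macrophages and 0.69, 1.08 and 0.74 (0.64, 1.08 and 0.64 with bounds) in monocytes. Ezr, the CD44 linker ezrin, rose in macrophages from 49.6 to 307, 277 and 288 CPM. Lyve1, a hyaluronan receptor of resident macrophages and lymphatic cells, fell in macrophages from 556 to 16.3, 62.8 and 20.8 CPM.

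The 3 genes closest to each receptor over the 8 group means, with the measure used for Spp1, are a description as well. For Cd44 they were Arhgap24 (0.30), Nlrp3 (0.32), the sensor of an inflammasome, and Acot7 (0.38). Itgav was closest to Dram1 (0.25), Ggta1 (0.29) and Tmem65 (0.30), and Itgb1 to Dlat (0.20), Fam210b (0.21) and Itfg1 (0.21). Itgb3 was closest to Spn (0.40), the leukocyte sialoprotein CD43, Rbpms (0.42) and Sh2d3c (0.47). For Itgb5 they were Spty2d1 (0.17), Tcf7l2 (0.20) and Elk3 (0.23), for Itga4 Abcd2 (0.38), Mrtfa (0.41) and Nlrp1a (0.42), and for Itga9 Nrp2 (0.41), Slamf9 (0.43) and Slc27a1 (0.45).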

How the data were processed

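RNA from 23 libraries of sorted macrophages and monocytes was made into libraries with SMART-Seq v4, which copies full transcripts from small inputs, and Nextera XT, and was sequenced as single reads, per the labels' protocols. Per the submitters' processing notes, STAR 2.4.1d was the aligner, GRCm38 the genome build and featureCounts (Subread 1.5.1) the counter. The deposited values are whole-number counts per gene. Not stated in the labels or notes were the annotation release, the use of strand and what was done with multi-mapping reads. GENCODE M21 gave a symbol to 47310 of 47729 entries, and the other 419 held 0.095% of counts. No libraries were identical.

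The tests used edgeR 4.0.16 under R 4.3.3: filterByExpr by group, TMM factors (0.727 to 1.406), and a robust quasi-likelihood fit of all libraries with 8 groups. Tests were made in 19 contrasts with Benjamini-Hochberg adjustment over 16260 genes, a threshold of 0.05 and a prior count of 0.125. Adjusted p-values named in the report come from this edgeR test unless stated. Standard errors are the log2 change over the square root of F, and 95% intervals are 1.96 of these. Subunit ratios per kb of exon had 0.5 count added. Bounds use 3 counts over a group and cover counting error only, since reads are not independent molecules. Totals of 9303153 to 32994092 counts put 3 counts at 0.091 to 0.322 CPM before scaling. Methods were tested on simulated data.

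The genes named are the 8 members, all members of a list of 4 or fewer, otherwise up to 4 called members of each list with the smallest adjusted p, and the 5 (3 for a receptor) closest profiles. Members, lists and markers were chosen with earlier results of these data known. Alternatives were DESeq2 size factors, library totals without Spp1, no filter, DESeq2 1.42.0, limma 3.58.1 (voom), a replicate block, only the groups compared, prior count 2 and omitting single libraries in turn. An offset for exon length was added after the data were seen. Sequences came from RefSeq (GRCm38.p6) and GENCODE M21.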

Additional observations from a re-analysis of the deposited data

Results flagged for a closer look

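The difference of the implant effect between the cell types, macrophages minus monocytes on the log2 scale, passed the edgeR quasi-likelihood test in 16 cases, which picks them out for a closer look. For Cd44 the differences were 1.92, 1.99 and 3.34 at days 2, 14 and 28. For Spp1 they were -4.98 at day 14 and -3.35 at day 28, and for Itga9 -5.44, -5.44 and -6.43 at the 3 days. Itgav differed by 2.21 at day 2 and 2.4 at day 28, Itgb1 by 2.73 at day 14, and Itga4 by 1.75 at day 14 and 2.99 at day 28. For Itgb3 the fitted values of 11.14, 10.94 and 10.40 depend on the prior count, since both macrophage controls had 0 counts.

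All 16 share the macrophage controls, of which there are 2, and the monocyte controls. In 6 of the 16 the call was kept in every alternative. The summed CPM of 13 neutrophil markers differed between the controls, at 69.7 to 103 in macrophages and 2810 to 4350 in monocytes. With the implant it was 3270 to 6910 and 2340 to 5350 at day 2, 155 to 339 and 317 to 882 at day 14, and 122 to 346 and 359 to 597 at day 28. The make-up of the sum differed between monocyte controls and day 2 monocytes. Means of Ltf, Ngp, Camp, Elane, Mpo and Csf3r were lower at day 2, with Ngp at 1110 CPM in controls and 7.46 at day 2. Those of the other markers in the sum were higher, with S100a8 at 603 and 1500 CPM and Retnlg at 0.911 and 208. The part of these markers in the differences was not tested. Groups of 2 or 3 libraries were not examined for outlying libraries.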

How the results depend on the processing

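Of 2367 member values recomputed, 2229 kept their side of the threshold and their direction, 91 lost a call and 47 gained one. Of 80 changes of sign, 0 were of a called value. Of 62 calls, 36 were kept in every alternative tried. By comparison these were 25 of 34 against controls, 0 of 3 between days, 5 of 9 between cell types and 6 of 16 for the difference of effects. The macrophage controls are 2 libraries, so leaving one out assumes that the other varies as the other groups do. Low counts limit Itgb3, with 42 to 75 counts in each implant group of either cell type and 0 in macrophage controls, and Itga9 in monocyte controls, with 0 to 4 in a library. The cause of the changes below was not tested.

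Over all groups the replicate letters showed no pairing, with a median correlation of deviations of -0.023 for the same letter and 0.019 for other letters. In 1 of 28 pairs of groups all exceeded 0.1. This pair was the macrophage and monocyte controls, with 0.236 and 0.346 for their 2 shared letters. Whether these controls share animals is not stated in the labels, and the main tests treated them as independent. With the replicate block, members called against control in macrophages went from 6 to 4 at day 14, with Itgb3 (adjusted p = 0.071) and Itga4 (0.067) lost, and from 5 to 4 at day 28, with Itgb3 (0.054) lost. Also with the block, 1 member in place of 2 was called in macrophages at day 28 against day 2, 0 in place of 1 in monocytes at day 28 against day 14, and 1 in place of 2 between the cell types at day 2, where Spp1 differed by 2.24 (adjusted p = 0.054).

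Against control, voom gave 4 members in place of 6 in macrophages at day 14, and no filter, DESeq2 and voom each added Itgb3 in monocytes at day 28. Fitting only the groups compared gave 3 members in place of 6 in macrophages at day 14 against control, and 4 in place of 2 and 2 in place of 1 between cell types at days 2 and 14. DESeq2 gave 4 and 2 there and 2 in place of 0 at day 28, voom 5 and 2 at days 2 and 14, and no filter 2 at days 14 and 28. Between days, 0 members became 1 with voom in macrophages at day 14 against day 2. In monocytes at day 14 against day 2 they became 1 with no filter, DESeq2 or voom, and at day 28 against day 2 they became 4 with no filter, 3 with DESeq2 and 1 with voom or the length offset. At day 28 against day 14, no filter gave 2 in place of 1. In macrophages at day 28 against day 2, the offset gave 1 in place of 2. Without an added count, which drops libraries with 0 counts, adjusted p in monocytes went from 0.0614 to 0.0234 for Itgb3 to Itgb5 and from 0.0855 to 0.0234 for Itgb3 to Itgav, and in macrophages from 0.0366 to 0.171 for Itgb3 to Itgb5.

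When each library was left out in turn, members called against control at days 2, 14 and 28 were 3 to 5, 3 to 5 and 4 to 5 in macrophages and 5 to 7, 7 and 4 to 5 in monocytes. They were 0 to 2 in macrophages at day 28 against day 2, 0 to 1 in monocytes at day 28 against day 14, and 0 in the other comparisons of days. Between cell types they were 4 to 6 in controls and 0 to 2, 1 and 0 to 1 at the 3 days, and for the difference of effects 1 to 5, 3 to 6 and 4 to 6. Adjusted p of the ratios ran, in macrophages, from 0.0162 to 0.0977 (Itgb3 to Itgb5), 0.0491 to 0.188 (Itgb1 to Itgav), 0.0629 to 0.19 (Itgb3 to Itgav), 0.0905 to 0.265 (Itgb5 to Itgav), 0.0739 to 0.599 (Itga4 to Itga9) and 0.113 to 0.433 (Cd44 to Itgav). In monocytes they ran, in the same order, from 0.0183 to 0.135, 0.0268 to 0.154, 0.0183 to 0.16, 0.021 to 0.135, 0.00312 to 0.0273 and 0.0478 to 0.179.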
